A study of Mus musculus with 9 samples.

Results

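The RNAs of RNase P, RNase MRP and telomerase were followed through the nucleus and the cytoplasm of mouse oocytes, in 6 genes: Rpph1, the RNA of RNase P, its annotated copies Rprl1, Rprl2 and Rprl3, Rmrp, the RNA of RNase MRP, and Terc, the RNA of telomerase. They were chosen by symbol, and all 6 are among the 23235 genes of the authors' table. Oocytes of day 21 were split by micromanipulation, and total RNA was sequenced from pools of 10 nuclei or 10 cytoplasms. Wild-type (WT) oocytes gave nuclei, with 3 libraries in the labels, and cytoplasms, with 2; oocytes labelled MTR4-null, for the RNA helicase MTR4 and called mutant below, gave 2 libraries of each. The allele, any Cre driver, the strain and the number of mice are not given in the sources used here. The authors deposited 1 column of FPKM (fragments per kilobase of transcript, scaled to the mapped fragments of a library) for each group. Every value below is therefore a group value of unknown spread, no comparison has a replicate check or a test, and how many libraries went into each value is not stated.

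RNase P and RNase MRP are related enzymes made of RNA and protein. RNase P cuts the leader from the 5′ end of precursor tRNAs, and RNase MRP, which shares most of its protein subunits, cuts the precursor of ribosomal RNA in the nucleolus. Both RNAs are made by RNA polymerase III. Telomerase RNA is made by RNA polymerase II, ends in an H/ACA domain like those of Cajal body and nucleolar guide RNAs, and carries the template for telomeric repeats. These RNAs are known mainly from the nucleus. MTR4 unwinds nuclear transcripts for the RNA exosome, which trims or degrades them.

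The sequences were read from GENCODE transcripts of the build GRCm38, with T for U, because the distance between Rpph1 and its copies bears on how far their values can be told apart. The submitters' processing notes name mm9 for the deposited values, so the positions below belong to the sequences and not to the table. Of Rpph1 only the last 51 bases are shown (chr14:50807449-50807499, minus strand), a stretch outside the part it shares with the copies. The copies are shown from their first base, and capitals mark bases that differ from Rpph1 in a pairwise alignment. That alignment left a differing base unmarked in each copy, where Rpph1 holds a repeat (below).
Rpph1: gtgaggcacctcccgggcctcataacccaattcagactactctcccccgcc
Rprl3: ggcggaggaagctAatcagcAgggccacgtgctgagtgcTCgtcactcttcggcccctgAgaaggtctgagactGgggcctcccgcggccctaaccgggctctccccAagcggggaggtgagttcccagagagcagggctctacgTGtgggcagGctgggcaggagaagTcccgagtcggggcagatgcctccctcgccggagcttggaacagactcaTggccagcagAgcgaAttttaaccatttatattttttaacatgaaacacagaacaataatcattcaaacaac
Rprl2: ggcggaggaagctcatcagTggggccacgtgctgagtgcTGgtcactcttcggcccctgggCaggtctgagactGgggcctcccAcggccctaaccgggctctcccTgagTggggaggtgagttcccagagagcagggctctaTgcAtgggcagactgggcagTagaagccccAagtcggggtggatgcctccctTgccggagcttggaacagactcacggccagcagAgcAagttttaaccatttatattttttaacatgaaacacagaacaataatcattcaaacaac
Rprl1: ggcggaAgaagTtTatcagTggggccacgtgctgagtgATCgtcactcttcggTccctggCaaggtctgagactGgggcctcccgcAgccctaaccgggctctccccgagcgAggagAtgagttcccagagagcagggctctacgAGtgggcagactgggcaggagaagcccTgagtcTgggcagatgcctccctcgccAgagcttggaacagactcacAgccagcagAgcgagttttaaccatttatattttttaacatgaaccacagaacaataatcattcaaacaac
Rprl3 lies at chr8:3803069-3803358 (minus strand), Rprl2 at chr3:22251374-22251663 (plus strand), and the 290 bases shown of Rprl1 at chr6:69326881-69327170 (minus strand). GENCODE lists no other gene over these 3 copies.

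The first 236 bases of each copy aligned with Rpph1. The alignment marked Rprl3 as differing at 14 of these positions (94.1% identity), Rprl2 at 15 (93.6%) and Rprl1 at 20 (91.5%). All 3 copies lacked 21 bases of an adjacent repeat in Rpph1, where the unit GCGGATGCCTCCCTCGCCGGA stands 2 times in a row at positions 182 to 223 from the 5′ end. No copy holds this unit unchanged. The alignment split the 21 missing bases so that a differing base near the start of the unit stayed unmarked in each copy. The marked differences are thus least counts, and the identities are slightly too high. At 36 positions at least 1 copy had a marked difference from Rpph1. All 3 copies were marked at 5 of these, and at 3 of the 5 they held the same base. Beyond position 236 the copies left Rpph1 but matched each other: Rprl2 and Rprl3 were identical over the 54 further bases, and Rprl1 matched each of them at 53.

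**Figure D1:**
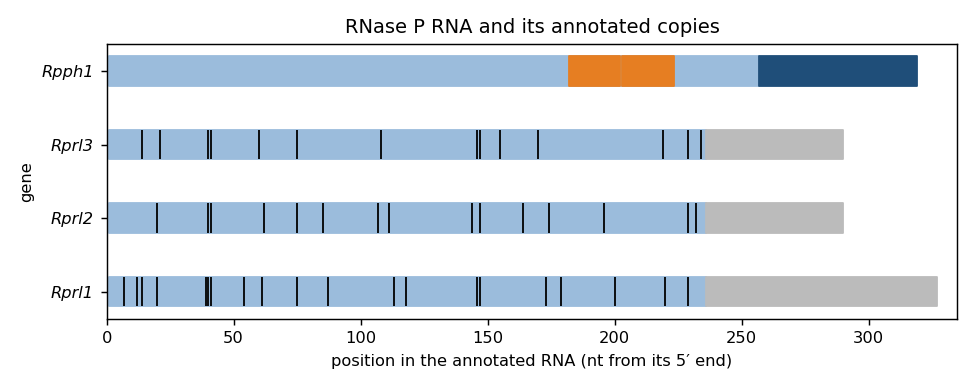
Positions along the annotated RNAs, in nucleotides from the 5′ end. Light blue is the part aligned between Rpph1 and the copies, orange the adjacent repeat of Rpph1, dark blue its unshared end and grey the 3′ stretch of the copies. Black lines are the 14, 15 and 20 differing bases that the alignment marked in Rprl3, Rprl2 and Rprl1, which are spread along the aligned part.

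The longest run that a copy shared with Rpph1 without a difference was 37 bases, in Rprl3. Over windows of 150 bases, the read length in the labels, the closest match of any Rpph1 window to Rprl3 had 8 differences, to Rprl2 10 and to Rprl1 11. Among the copies the closest windows had 10 to 14 differences. How many differences the authors' alignment allowed, and how it placed reads that match several genes, is stated nowhere in the labels. The split of reads between Rpph1 and its copies is therefore uncertain.

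Rmrp shared no run over 9 bases with any of the other RNAs, and Terc none over 11. Rmrp (chr4:43492788-43493058, minus strand, 271 bases) is shown whole because it faces a coding gene: capitals mark 124 bases, or 45.8% of it, that an exon of Ccdc107 covers on the opposite strand.
Rmrp: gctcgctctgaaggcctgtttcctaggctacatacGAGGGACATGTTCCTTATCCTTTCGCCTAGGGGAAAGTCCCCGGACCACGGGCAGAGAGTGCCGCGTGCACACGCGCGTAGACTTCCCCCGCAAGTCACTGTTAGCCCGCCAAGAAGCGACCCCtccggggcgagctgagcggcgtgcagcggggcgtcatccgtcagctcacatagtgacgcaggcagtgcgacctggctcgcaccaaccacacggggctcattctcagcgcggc
Terc spans chr3:96414437-96414859 (minus strand) in a model of 423 bases, 26 more than in RefSeq, with no other annotated gene over it. Its first 120 bases (chr3:96414740-96414859) and last 30 (chr3:96414437-96414466) are shown for the parts that mark it as telomerase RNA. Capitals mark the run CTAACCCT at positions 29 to 36, which is complementary to the telomeric repeat and was found in none of the other RNAs, and an ACA trinucleotide 3 bases from the 3′ end, where H/ACA RNAs carry one.
Terc start: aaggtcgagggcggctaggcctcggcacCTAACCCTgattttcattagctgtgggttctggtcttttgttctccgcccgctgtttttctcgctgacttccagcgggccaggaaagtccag
Terc end: aagtgcacccggaactcggttctcACAacc
Rpph1 shares 233 of its 319 bases (73.0%) with an exon of Ccnb1ip1 on the same strand, at positions 36 to 268, and Parp2 begins 73 bases away on the opposite strand. Strand could not separate reads of Rpph1 from those of Ccnb1ip1 in the shared part, since both lie on the same strand. Whether the libraries kept strand is not given in the labels, so reads of Rmrp and Ccdc107 cannot be told apart either. The overlapping genes had far lower values: Ccnb1ip1 stood at 10.3 FPKM in the wild-type nucleus, 5.29 in the mutant nucleus, 9.72 in the wild-type cytoplasm and 0.817 in the mutant cytoplasm. Ccdc107 stood at 12.7, 11.8, 20.97 and 9.72 FPKM in the same order.

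The labels were checked on marker genes. The transcript of Mtr4, listed as Skiv2l2, was at 16.2 FPKM in the wild-type nucleus, 2.91 in the mutant nucleus, 21.6 in the wild-type cytoplasm and 2.51 in the mutant cytoplasm, with signal left in the mutant whose position relative to the deletion is unknown. All 10 oocyte markers, such as Gdf9 and Zp3, were present in every column, with medians of 721, 664, 899 and 441 FPKM in that order. The 10 granulosa markers, from the cells around the oocyte, had medians of 2.88, 1.95, 2.86 and 1.91 FPKM, and their summed FPKM was 74.8, 49.0, 53.0 and 39.7, with Amh alone listed at 0, in the wild-type nucleus. FPKM is relative to each column's own total, so levels in nucleus and cytoplasm cannot be added, and fewer cells' worth of RNA and less RNA per cell cannot be told apart. Differences were taken on log2(FPKM + 1), a scale that shrinks low values and so understates most differences between them, over the 14270 genes with at least 1 FPKM in some column, and genes at least 2-fold apart on that scale were counted.

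In the wild-type oocytes all 6 RNAs were far higher in the nuclear column than in the cytoplasmic one. Rpph1 stood at 11847 FPKM in the wild-type nucleus and 156 in the wild-type cytoplasm, a ratio of 75.7. Rprl3 stood at 7829 and 58.9 (ratio 133), and Rprl2 at 164 and 2.39 (ratio 68.6). Rprl1, the lowest of the family, was at 13.5 FPKM in the nucleus and listed at 0 in the cytoplasm, so no ratio is given. Among these 4 genes the order of levels per length was thus the same in both wild-type columns, with Rpph1 first and Rprl3 next.

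Rmrp stood at 2733 FPKM in the wild-type nucleus and 115 in the wild-type cytoplasm (ratio 23.7), the smallest ratio of the 5 genes that have one. Terc stood at 455 and 1.32 FPKM (ratio 344), the largest, an order that rests on its low cytoplasmic value: with a pseudocount of 10 the log2 difference was 5.36 for Terc, 6.15 for Rpph1 and 6.83 for Rprl3. All 6 genes were thus at least 2-fold higher in the nucleus, where 12.4% of the 14270 genes were, and none was at least 2-fold lower, against 4.71% of all genes. Their median log2 difference was 5.92, against -0.04 over all genes. Terc was among the 33 genes with the highest log2 differences. In the wild-type nucleus Rpph1 ranked 3, Rprl3 6 and Rmrp 14 among all genes by FPKM, while in the wild-type cytoplasm they ranked 430, 1555 and 671.

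**Figure D2:**
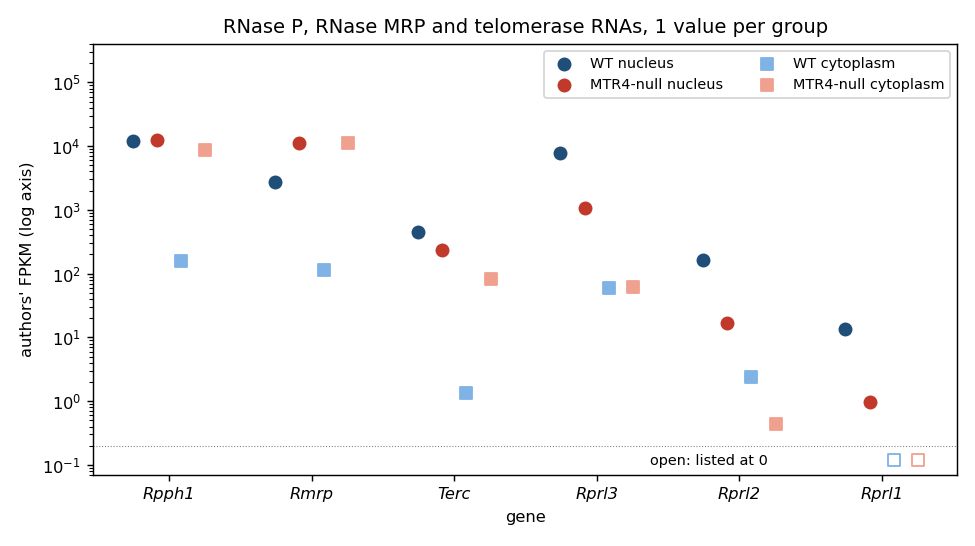
FPKM (log axis) of the 6 genes in the 4 deposited group values. Circles are nuclei and squares cytoplasms, dark and light blue are WT, red and pink MTR4-null, and open symbols are values listed at 0; in the cytoplasm Rpph1, Rmrp and Terc stand far higher in MTR4-null than in WT, while the nuclear values of the 3 copies stand lower in MTR4-null.

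In the nucleus the genes differed in direction between the genotypes. Rmrp was higher, at 11013 FPKM in the mutant nucleus against 2733 in wild-type (ratio 4.03, log2 difference 2.01). Rpph1 hardly differed, at 12556 against 11847 FPKM (ratio 1.06, log2 difference 0.08). That small difference has no stable direction, since it was -0.11 after centring by the median log2 ratio or rescaling without small RNAs, and 0.65 after quantile normalization. Terc was lower, at 234 FPKM against 455 (ratio 0.514, log2 difference -0.96), just under a 2-fold difference on the log2(FPKM + 1) scale and just past it, at -1.15, after centring or rescaling without small RNAs.

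The copies of Rpph1 were all lower in the mutant nucleus. Rprl3 was at 1067 FPKM against 7829 in wild-type (log2 difference -2.87), Rprl2 at 16.9 against 164 (-3.20) and Rprl1 at 0.956 against 13.5 (-2.89). Counted from the lowest of the 14270 differences, Rprl2 stood at place 56, Rprl1 at 82 and Rprl3 at 87. Of the 6 genes, 1 was at least 2-fold higher, against 23.9% of all genes, and 3 at least 2-fold lower, against 12.3%. The median log2 difference was -1.92 over the 6 genes and 0.21 over all genes. After centring 4 of the 6 were lower, with Terc, as were 2315 of the 14270 genes.

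In summed FPKM the makeup of the RNase P family therefore differed between the nuclei, though the split of reads between its genes is uncertain. In the wild-type nucleus Rpph1 made up 59.7% of the summed FPKM of the 4 genes and Rprl3 39.4%. In the mutant nucleus Rpph1 made up 92.1% and Rprl3 7.82%. Rpph1 was 1.51 times as high as Rprl3 in the wild-type nucleus and 11.8 times in the mutant nucleus. Rmrp had 0.231 of the FPKM of Rpph1 in the wild-type nucleus and 0.877 of it in the mutant nucleus. Rescaling a whole column leaves such ratios within it as they are, but quantile normalization does not: after it the log2 difference between the nuclei was 1.76 for Rmrp and 0.65 for Rpph1.

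In the cytoplasm Rmrp, Rpph1 and Terc were all far higher in the mutant. Rmrp was at 11312 FPKM in the mutant cytoplasm and 115 in wild-type, a ratio of 98.1 (log2 difference 6.60). Rpph1 was at 8822 and 156 FPKM (ratio 56.4, log2 difference 5.81), and Terc at 83.5 and 1.32 FPKM (ratio 63.1, log2 difference 5.19, or 3.05 with a pseudocount of 10). With these values Rmrp ranked 2 and Rpph1 3 by FPKM in the mutant cytoplasm, and Terc 524, against 10544 in the wild-type cytoplasm. Counted from the highest of the 14270 differences, Rmrp stood at place 34, Rpph1 at 48 and Terc at 64.

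None of the 3 copies was at least 2-fold higher in the mutant cytoplasm. Rprl3 was at 61.7 FPKM in the mutant cytoplasm and 58.9 in wild-type (ratio 1.05, log2 difference 0.07). Rprl2 was at 0.443 and 2.39 FPKM (log2 difference -1.23), a call that did not hold after centring (-0.71), after rescaling without small RNAs (-0.97) or with a pseudocount of 10 (-0.25). Rprl1 was listed at 0 in both. Of the 6 genes, 3 were thus at least 2-fold higher, against 15.0% of all genes, and 1 at least 2-fold lower, against 21.4%. The median log2 difference was 2.63 over the 6 genes and -0.26 over all genes. After centring 3 members were higher and none lower, while the median over all genes turned to 0.26, with 3511 genes higher and 996 lower. Rpph1 made up 71.9% of the summed FPKM of its family in the wild-type cytoplasm and 99.3% in the mutant cytoplasm.

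**Figure D3:**
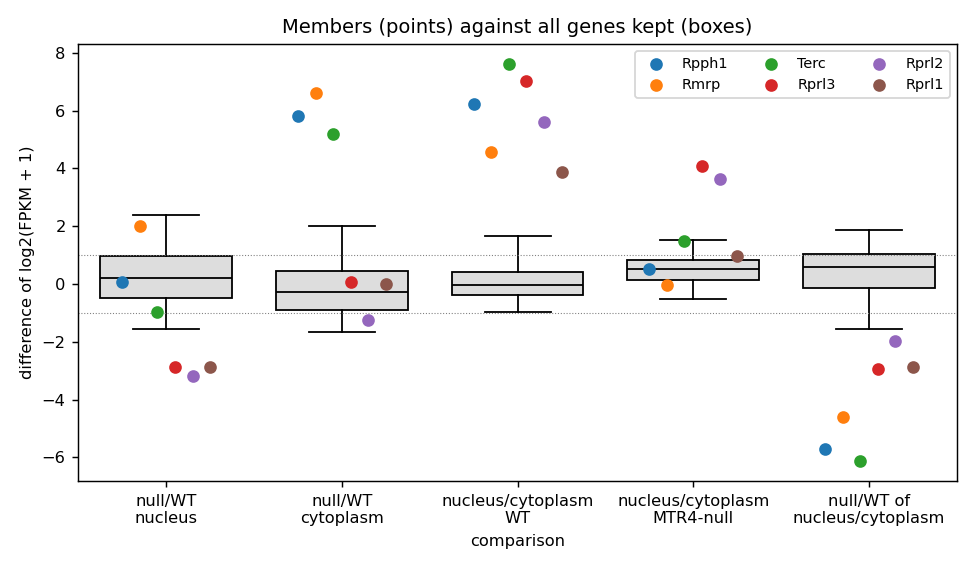
Differences of log2(FPKM + 1) of the 6 genes (points) in the 5 comparisons, over the same differences of all 14270 genes kept (boxes from the lower to the upper quartile with the median, whiskers from percentile 5 to percentile 95). Dotted lines mark a 2-fold difference; all 6 points lie above the whisker for the WT compartments and below it for the difference between the genotypes' compartment ratios.

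Other RNAs were measured beside these cytoplasmic values. Small RNAs as a class, taken by symbol (guide RNAs, microRNAs, small nuclear RNAs and the like, with the 6 genes and Rn45s included), made up 4.34% of all FPKM in the wild-type cytoplasm and 39.1% in the mutant cytoplasm, against 58.4% and 53.8% in the nuclei. Most of this share, except in the wild-type cytoplasm, was Scarna2, a Cajal body RNA. It held 361725 of 854286 FPKM in the wild-type nucleus and 370466 of 880989 in the mutant nucleus. In the cytoplasms it held 3428 of 416740 FPKM in wild-type and 100235 of 433013 in the mutant (FPKM ratio 29.2). Malat1, a long noncoding RNA kept in the nucleus, was at 8.63 FPKM in the wild-type cytoplasm and 69.6 in the mutant cytoplasm (ratio 8.07). Rn45s, named for the precursor of ribosomal RNA, was at 1016 and 181 FPKM in the same order (ratio 0.178). Whether its reads came from the precursor or from mature ribosomal RNA left after depletion is not known. Neat1, another nuclear RNA, was at 0.932 and 0.726 FPKM. Of 6 nuclear long noncoding RNAs listed, 5 passed the filter. In the mutant cytoplasm 2 of the 5 were at least 2-fold higher, against 15.0% of all genes, and none lower, against 21.4%. Their median log2 difference was 0.78, against -0.26 over all genes. After centring 3 of the 5 were higher, while 3511 of the 14270 genes were higher and 996 lower. Whether nuclear material in the cytoplasmic samples, or the higher share of small RNAs as a class, took part in the values of Rmrp, Rpph1 and Terc was not tested.

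Within the mutant oocytes the nuclear and cytoplasmic values lay much closer than in wild-type for Rmrp, Rpph1 and Terc. Rmrp had a nucleus to cytoplasm ratio of 0.974 and Terc of 2.80. That of Rpph1 was 1.42, a log2 difference of 0.51 that turned to -0.06 after centring and -0.12 after rescaling without small RNAs. Rprl3 and Rprl2 stayed far higher in the nucleus, with ratios of 17.3 and 38.2. The ratio of Rprl2 rests on 0.443 FPKM in the mutant cytoplasm. Its log2 difference was 1.37 with a pseudocount of 10 and 4.97 with a pseudocount of 0.1. Rprl1 was at 0.956 FPKM against a cytoplasm listed at 0, under 2-fold apart on the log2(FPKM + 1) scale. In the same pair of columns the ratio was 3.70 for Scarna2, 2.48 for Malat1 and 16.8 for Rn45s. Of the 6 genes, 3 were at least 2-fold higher in the mutant nucleus, against 17.0% of all genes, and none at least 2-fold lower, against 1.84%. After centring 640 of the 14270 genes were higher and 906 lower. The call for Terc, at a log2 difference of 1.48, did not hold after centring (0.90), rescaling without small RNAs (0.86) or quantile normalization (0.78).

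The difference between the genotypes' nucleus to cytoplasm ratios put all 6 genes on the same side. On the log2(FPKM + 1) scale the ratio was lower in the mutant for each gene, with differences of -6.14 for Terc, -5.72 for Rpph1, -4.59 for Rmrp, -2.94 for Rprl3, -2.89 for Rprl1 and -1.97 for Rprl2. All 6 were at least 2-fold lower, against 10.7% of all genes, and none higher, against 27.0%. For Rprl2 this call rests on the pseudocount, since its FPKM ratios of 68.6 and 38.2 are under 2-fold apart, and a pseudocount of 0.1 gave -1.07. With a pseudocount of 10 the value of Terc was -3.98. The median was -3.77 over the 6 genes and 0.57 over all genes. After centring all 6 were still lower, but the median over all genes turned to -0.13, with 1003 genes higher and 3130 lower. The same sign arose in different ways: for Rmrp, Rpph1 and Terc the cytoplasmic value was higher in the mutant, and for the copies the nuclear value was lower. The value of Rprl1 rests on the nuclear columns alone.

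**Figure D4:**
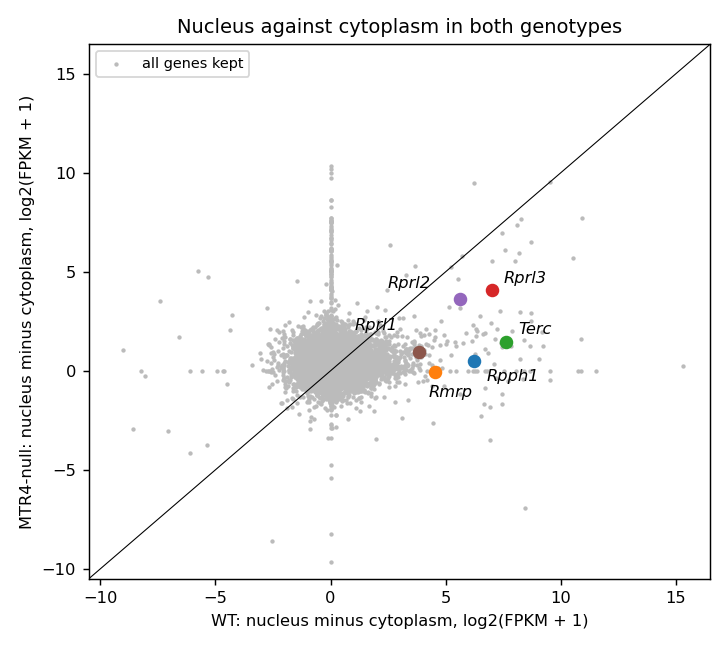
Nucleus minus cytoplasm of log2(FPKM + 1) in WT (x axis) and MTR4-null (y axis) for the 14270 genes kept (grey) and the 6 genes (coloured and named). The line marks equal differences; all 6 genes lie to the right of 3 on the x axis and below the line, with Rmrp and Rpph1 near 0 on the y axis and Rprl2 and Rprl3 near 4.

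Genes with like patterns were sought over the 4 columns by the distance between log2(FPKM + 1) values after subtraction of each gene's mean, among 10302 genes with at least 5 FPKM in some column. Nearest to Rmrp were A330069E16Rik, a noncoding RNA gene, at a distance of 0.29, Rnu12, a small nuclear RNA of the minor spliceosome, at 0.56, and Scarna3b, a Cajal body RNA, at 0.57. A330069E16Rik stood at 58.7, 262, 1.11 and 235 FPKM in the wild-type nucleus, mutant nucleus, wild-type cytoplasm and mutant cytoplasm. Nearest to Terc were 4930470H14Rik at 0.37, Snora17 at 0.56 and A630089N07Rik at 0.74. Of these, 4930470H14Rik, a noncoding RNA gene, stood at 478, 289, 1.72 and 125 FPKM in the same order, against 455, 234, 1.32 and 83.5 for Terc.

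Nearest to Rpph1 were the H/ACA guide RNAs Snora23 at 0.92, Snora75 at 0.94 and Snora68 at 1.12. Nearest to Rprl3 were Snora52 at 0.98, Snord55 at 1.22 and Mir5134 at 1.24. For Rprl2, Mir1983 came first at 1.31, Rprl3 next at 1.33 and Snora52 after it at 1.91, and for Rprl1 Col6a5 at 0.51, Gm15292 at 0.52 and 1700020G17Rik at 0.54. Rprl2 and Rprl3 were the pair with the shortest distance among the 6 genes. Rpph1 was closer to Terc (1.45) and Rmrp (1.85) than to its copies (4.71 to 5.63). With only 4 values a gene, and several neighbours listed at 0 in the cytoplasm, these distances are a description.

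The mRNAs of the proteins that bind these RNAs, and of the later lists, are to be read against the share of all genes called. Before centring this share was 23.9% higher and 12.3% lower in the mutant nucleus, and 15.0% higher and 21.4% lower in the mutant cytoplasm. List counts after centring are to be read against the centred calls instead. Of the 14270 genes, centring gave 2738 higher and 2315 lower in the mutant nucleus. In the mutant cytoplasm it gave 3511 higher and 996 lower. Of 11 listed proteins of RNase P and RNase MRP, 10 were in the table and past the filter. In the nucleus 2 were at least 2-fold higher in the mutant: Pop4 at 36.5 FPKM against 8.01 in wild-type, and Rpp14 at 14.5 against 3.09. None was lower, but after centring 2 were. Pop1, the largest subunit, was at 18.0 against 17.2 FPKM there and at 7.80 against 26.0 in the cytoplasm. In the cytoplasm 3 were lower, Pop1, Pop5 (10.7 against 23.7 FPKM) and Rpp38 (6.31 against 26.2), and 1 was higher, Rpp25, at 1.104 FPKM against a wild-type value listed at 0. The median log2 difference was 0.09 in the nucleus and -0.26 in the cytoplasm, against 0.21 and -0.26 over all genes, and centring turned these medians to -0.10 and 0.26.

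All 9 listed proteins of telomerase and H/ACA particles passed the filter. Tert, the reverse transcriptase of telomerase, was at 17.4 FPKM in the wild-type nucleus, 10.9 in the mutant nucleus, 15.1 in the wild-type cytoplasm and 9.04 in the mutant cytoplasm, under 2-fold apart in both compartments. Dkc1, the pseudouridine synthase dyskerin that binds the H/ACA domain of Terc, was lower in both, at 12.2 against 51.3 FPKM in the nucleus and 15.6 against 41.2 in the cytoplasm. After centring Dkc1 was no longer called in the cytoplasm. Tep1, a telomerase-associated protein, was higher in the nucleus, at 2.85 against 0.572 FPKM. The other 7 were under 2-fold apart in the nucleus, and the median log2 difference of the 9 was -0.27 there and -0.22 in the cytoplasm, the second turning to 0.30 after centring.

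**Figure D5:**
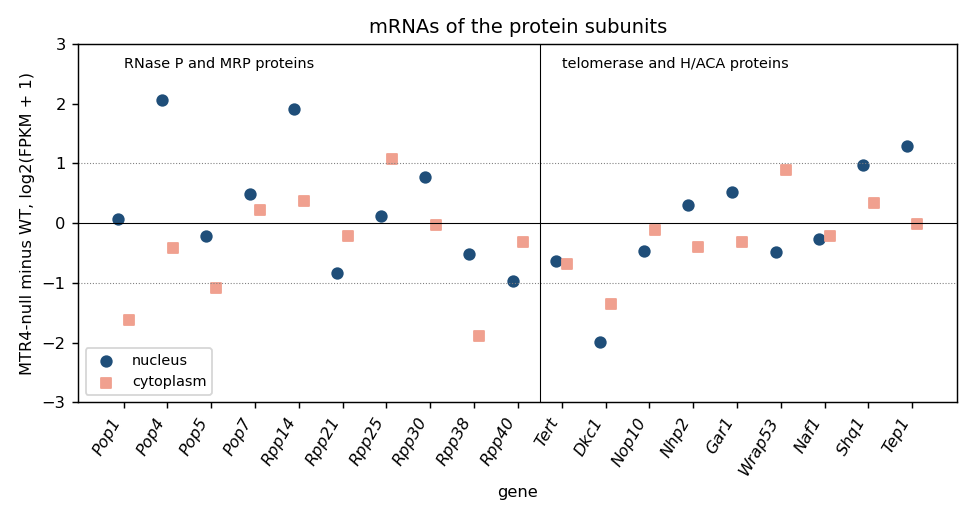
MTR4-null minus WT on the log2(FPKM + 1) scale for the mRNAs of 10 proteins of RNase P and RNase MRP and 9 of telomerase and H/ACA particles, in the nucleus (blue circles) and the cytoplasm (pink squares). Dotted lines mark a 2-fold difference; most points lie between them, with Pop4, Rpp14 and Tep1 above in the nucleus and Dkc1 below in both compartments.

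Enzymes that trim or extend the 3′ end of Terc and factors of nuclear decay were listed with them, and all 12 passed the filter. In the nucleus 2 were at least 2-fold lower, or 3 after centring, and none was higher. Before centring these were Skiv2l2 itself and Toe1, a deadenylase of small RNAs, at 6.85 against 15.8 FPKM. In the cytoplasm 5 were lower and 2 higher, among them Exosc10, the nuclear exosome nuclease, at 10.2 against 40.2 FPKM and Toe1 at 11.6 against 4.28. After centring 2 were lower and 2 higher. The deadenylase gene Parn, known for maturing Terc, was at 17.4 and 17.0 FPKM in the wild-type and mutant nuclei and at 24.1 and 10.6 in the cytoplasms.

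The list of RNA polymerase III, which makes Rpph1 and Rmrp, and of its factors had 26 members past the filter, among them factors that serve other kinds of polymerase III gene. In the nucleus 10 of the 26 passed a 2-fold difference upward, against 23.9% of all genes, and 1 downward, against 12.3%, and centring made these 9 and 2, with Snapc2, of the complex that starts these genes, at 36.6 against 2.49 FPKM and Gtf3c4, of the factor TFIIIC that serves tRNA genes, at 15.1 against 1.41. In the cytoplasm 6 stood higher and 5 lower, and centring left 6 and 0. The list's median log2 difference was 0.51 in the nucleus and -0.23 in the cytoplasm, the second turning to 0.28 after centring. Of 10 other polymerase III transcripts listed, 2 matched the table. Bc1 was listed at 0 in every column. Vaultrc5, a vault RNA, was at 7.63 FPKM in the wild-type nucleus and 127 in the mutant nucleus, and at 11.05 and 63.3 in the cytoplasms, so that unlike Rpph1 and Rmrp it was not higher in the wild-type nucleus than in the wild-type cytoplasm.

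Downstream of RNase P, 9 genes of tRNA end processing and splicing split in the nucleus into 3 higher and 1 lower, near the 23.9% and 12.3% of all genes, and centring left 2 and 1. Tsen54, a subunit of the tRNA splicing endonuclease, was at 17.7 against 4.04 FPKM there. In the cytoplasm 2 stood higher and 3 lower, and centring made these 6 and 0, with the tRNA splicing kinase gene Clp1 at 23.8 against 1.96 FPKM. The separate RNase P of mitochondria is made of protein alone, and 2 of the 3 listed genes found in the table were higher in both compartments. Rg9mtd1 was at 40.4 against 4.98 FPKM in the nucleus and 33.4 against 6.75 in the cytoplasm, and Hsd17b10 at 39.5 against 1.29 and 30.2 against 3.93. The third, 1110008L16Rik, was under 2-fold apart in the nucleus and lower in the cytoplasm, at 2.43 against 7.76 FPKM, a call that centring removed. Of 8 genes of telomere binding and telomerase control, 3 were higher and 1 lower in the nucleus, among them Terf2ip at 14.4 against 4.66 FPKM and the lower Pot1b at 9.14 against 22.5, and 1 was higher and 1 lower in the cytoplasm, or 1 and 0 after centring.

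The lengths of these RNAs bear on their levels. The GENCODE models run from 271 bases for Rmrp to 423 for Terc, while cDNA of 300 to 400 bp was selected. FPKM of RNAs near or under the fragment size depends on the length model used. The RefSeq models of the copies are shorter, at 238 bases for Rprl1 (89 fewer), 235 for Rprl3 (55 fewer) and 238 for Rprl2 (52 fewer). Levels of different genes are thus less certain than a ratio of the same gene between columns. Together the 6 genes made up 2.70% of all FPKM in the wild-type nucleus, 2.82% in the mutant nucleus, 0.0802% in the wild-type cytoplasm and 4.68% in the mutant cytoplasm.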

How the data were processed

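Total RNA libraries of oocyte nuclei and cytoplasms were depleted of ribosomal RNA and read as paired ends of 150 bp, per the labels' protocols. The authors deposited 1 table of FPKM with 4 columns, 1 per group, for 23235 genes. TopHat2 2.1.1, Cufflinks 2.2.1 and mm9 are named in the submitters' processing notes, without settings or order. The last row has no gene name, equals the sum of the others, holds 50% of all values and was left out. Read depth is unknown, so no counting interval is given.

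Values were compared as log2(FPKM + 1) over 14270 genes with at least 1 FPKM in at least 1 column, and called at 2-fold. The planned limma tests could not be run with 1 value per group. Alternatives were pseudocounts of 0.1 and 10, other filters and 3 scalings. The counting was tested on simulated data. Named genes were all 6 members, the 3 nearest patterns of each, and list members of the largest difference at 5 FPKM or more, plus any of the protein subunits; Scarna2, Rn45s, Neat1 and genes overlapping members were named after their values were seen. Members and the 11 lists were chosen with earlier results of these data known. No RefSeq promoter entry matched a member. Sequences were aligned with Biopython 1.88 (Python 3.11.15, pandas 2.3.3).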

Additional observations from a re-analysis of the deposited data

Results flagged for a closer look

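For Terc and Rprl3 the log2 difference between the genotypes had opposite signs in the nucleus and the cytoplasm. For Terc the log2 difference of MTR4-null against WT was -0.96 in the nucleus and 5.19 in the cytoplasm. For Rprl3 it was -2.87 in the nucleus and 0.066 in the cytoplasm. With 1 value per group the difference between compartments was not tested, and the cytoplasmic log2 difference of Rprl3 is close to 0, so that Rprl3 hardly differed there.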

How the results depend on the processing

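The 30 log2 differences (6 genes in 5 comparisons) were recomputed under 7 alternatives, giving 210 values. Of these, 201 stayed on the same side of a 2-fold difference. Losing the call were Rprl2 in the cytoplasm (-0.25 with a pseudocount of 10, -0.71 centred, -0.97 rescaled without small RNAs) and Terc between the MTR4-null compartments (0.90 centred, 0.86 rescaled, 0.78 quantile normalized). Terc in the nucleus gained it (-1.15 both centred and rescaled), and so did Rprl1 between the MTR4-null compartments (3.40 with a pseudocount of 0.1). Signs changed in 6 values, all under 2-fold: Rpph1 in the nucleus (-0.11 centred and rescaled) and between the MTR4-null compartments (-0.06 and -0.12), and Rprl1 in the cytoplasm, where both columns are listed at 0. For the low Rprl1 a pseudocount of 10 gave -1.10 in place of -2.89 in the nucleus, and 1.23 in place of 3.86 between the WT compartments.

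Counts over all genes moved more, here as higher and lower. For the nucleus (3417 and 1753) a pseudocount of 10 gave 1004 and 304, and a filter of 5 FPKM 1038 lower. For the cytoplasm (2135 and 3047) a pseudocount of 10 gave 481 and 1064, centring 3511 and 996, and rescaling 3210 and 1077. For the WT compartments (1775 and 672) pseudocounts of 0.1 and 10 gave 2687 and 1367, and 248 and 59, the filter of 5 FPKM 902 higher, and quantile normalization 1102 lower. For the MTR4-null compartments (2428 and 262) they gave 3654 and 627, 444 and 31, 116 lower with the filter, 640 and 906 centred, 863 and 686 rescaled, and 765 and 702 quantile normalized. For the difference of ratios (3859 and 1521) a pseudocount of 10 gave 1118 and 194, the filter 705 lower, centring 1003 and 3130, rescaling 1244 and 2579, and quantile normalization 1782 higher. The cause of these shifts was not tested.

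No paired analysis was possible because the table has 1 column per group, and for the same reason leaving out a replicate was not run. Depth, which limits the low values of Rprl1, Rprl2 and the WT cytoplasmic Terc, is unknown.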
